A study of Mus musculus with 48 samples.

Results

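The 500 loci that varied most between unstressed mice were examined in a methyl-CpG-binding-domain sequencing (MBD-seq) data set of the mouse amygdala. MBD-seq captures sheared DNA with a protein domain that binds methylated CpG dinucleotides, and the read count over a locus rises with the methylation and with the number of DNA copies of that locus, which cannot be told apart in these counts. The count table held 187695 loci. Of these, 79285 lay on chromosomes 1 to 19 and had a mean count of 30 or more in the 24 libraries of mice reared without separation. Counts were divided by the library total, taken without the row of the highest total count, and multiplied by 1e+06 to give the CPM used throughout. The 79285 loci were ranked by the SD of the CPM over its mean (coefficient of variation, CV), and the first 500 were taken as members. Their CV ranged from 0.353 to 0.691 with a median of 0.371, and the median over all 79285 loci was 0.216. The members were thus chosen by their CV in C, and all values of the C libraries are given as a description. The last 3 loci inside the limit lay near Gm40452 (0.35343), in Mthfd2l (0.353327) and near Gm23831 (0.353286), and the first 3 outside lay in Snhg14 (0.353192), near Gm50597 (0.3531) and in Gm7631 (0.353099).

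The mice were 4-month-old male offspring of Tph2+/- parents on a C57BL/6N background, with 2 intact alleles (Tph2+/+), 1 (Tph2+/-) or none (Tph2-/-) of the gene for tryptophan hydroxylase 2, the enzyme of serotonin synthesis in neurons. Litters either spent 3 h of each of the days 2 to 15 after birth away from the mother (maternal separation, MS) or had standard rearing (control, C), and each of the 6 groups of genotype and rearing had 8 mice. Mice of all groups lived singly after weaning and passed through the same behavioral tests, intruder encounters included. In Tph2-/- mice the gene was inactive in the whole body from conception. Of the 48 libraries, 22 of MS mice were used for the tests, since the study had left out 2 Tph2-/- MS libraries. Its reasons were lower counts together with shifted signal densities and extra small peaks. The labels do not name the 2 libraries. The pair with the lowest totals of that group (replicates 3 and 7) was left out here, and the signal densities were not used. The pair may therefore differ from that of the study. Library totals were between 7.72 and 14.1 in units of 1e+06 counts. The sample numbers in the labels ran from S1 to S48, with the C libraries at S1 to S17 and S42 to S48 and the MS libraries at S18 to S41, so sample number and rearing cannot be told apart. Of the MS libraries, 8 used ones numbered S18 to S26 differed from the other 14 in how counts depended on CpG density. The slope of log2 CPM on CpG density spanned -0.050 to 0.233 in S18 to S26 and -0.088 to 0.021 in S27 to S41. The 0.233 was Tph2-/- MS replicate 2, which was kept, and the left-out replicates 3 and 7 had 0.319 and 0.115. Counts over the 5 loci of the rule's size inside Tph2 overlapped between genotypes and gave no check of the genotype labels.

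Most CpG sites of the adult mouse genome are methylated in all cells, and the methylation of only a small share of loci differs between genetically like animals. Among the sequences known to differ are certain retrotransposon copies, whose methylation is set early in development and then kept in all tissues, and arrays of near-identical copies, whose number can change between generations. Tandem repeats, the DNA of the mitochondrion and the ribosomal RNA genes also differ in copy number between animals, tissues and DNA preparations.

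Members described in the results held sequences of several kinds, and an example of each is shown here. Pop1, Gm32584, Lrrc8b, Chl1 and Gm32802 were named for their CV in C, and Gm10222, Lars2 and Apbb1ip for their spread in MS. The stretches are 150 bp of the plus strand of the RefSeq GRCm38 assembly, 5′ to 3′. In the first 3, the member is a tandem repeat without a CpG in the stretch shown. The capitals mark 1 repeat unit at the length of best match.
Pop1 (chr15:34500845-34500994): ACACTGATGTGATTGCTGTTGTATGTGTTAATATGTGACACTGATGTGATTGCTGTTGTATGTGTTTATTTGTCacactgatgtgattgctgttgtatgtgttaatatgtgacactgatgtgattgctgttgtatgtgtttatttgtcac
Gm32584 (chr5:36660969-36661118): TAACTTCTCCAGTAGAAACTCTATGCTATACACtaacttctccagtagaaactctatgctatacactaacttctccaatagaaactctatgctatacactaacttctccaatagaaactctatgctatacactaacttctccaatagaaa
Lrrc8b (chr5:105458206-105458355): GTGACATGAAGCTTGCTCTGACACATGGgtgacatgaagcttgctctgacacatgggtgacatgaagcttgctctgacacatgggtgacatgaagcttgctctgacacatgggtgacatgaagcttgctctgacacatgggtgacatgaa
In the next 5 the capitals mark CpG sites. The stretch near Chl1 had 2, while that of Gm10222, a pseudogene, had 8 and came from a copy of mitochondrial DNA. The stretch in Lars2 had 11, that near Apbb1ip 16 and that in Gm32802 8.
Near Chl1 (chr6:103314373-103314522): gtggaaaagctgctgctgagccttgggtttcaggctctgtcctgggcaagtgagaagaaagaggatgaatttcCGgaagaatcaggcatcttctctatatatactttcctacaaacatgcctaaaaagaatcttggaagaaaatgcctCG
Gm10222 (chr1:24613648-24613797): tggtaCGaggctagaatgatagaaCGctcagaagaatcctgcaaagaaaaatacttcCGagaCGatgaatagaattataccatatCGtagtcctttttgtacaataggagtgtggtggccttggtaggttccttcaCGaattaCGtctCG
Lars2 (chr9:123461962-123462111): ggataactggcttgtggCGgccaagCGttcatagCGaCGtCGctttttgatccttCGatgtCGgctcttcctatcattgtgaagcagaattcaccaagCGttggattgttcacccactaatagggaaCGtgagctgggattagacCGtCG
Near Apbb1ip (chr2:22744673-22744822): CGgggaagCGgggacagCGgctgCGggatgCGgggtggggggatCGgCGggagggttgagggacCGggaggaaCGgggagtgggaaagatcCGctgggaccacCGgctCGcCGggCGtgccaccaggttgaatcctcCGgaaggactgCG
Gm32802 (chr10:118260052-118260201): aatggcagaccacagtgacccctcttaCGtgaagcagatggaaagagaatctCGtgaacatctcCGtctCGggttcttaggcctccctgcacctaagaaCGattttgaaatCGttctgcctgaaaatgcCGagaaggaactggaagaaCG
The repeat unit of best match was 74 bp in the intron of Pop1, which encodes a subunit of ribonuclease P. It was 33 bp in the coding exon of the predicted gene Gm32584 and 28 bp in an intron of Lrrc8b, a subunit of a volume-regulated anion channel. The 74 bp of Pop1 themselves hold near-identical copies of a shorter stretch in a row.

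Repeated and copied sequence was common among the members. A stretch that matched elsewhere in the assembly (95% identity or more over at least 50% of the locus) was present in 145 of 500 members (29%), compared with 9.59% of all 79285 loci and 5.17% of the loci with a mean count under 40, the range in which 410 members lay. A tandem repeat was found in 20.6% of members, compared with 3.57% and 2.70%. A CpG density under 0.5 per 100 bp was found in 66 members (13.2%), compared with 1.59% and 2.55%. Of the 41 loci without any CpG, 10 were members, among them Pop1, Gm32584, the end of chromosome 10, Zswim6, Ttc28, Atp6v0a2, Gm32969, Lyst, Ada and Slc51a. The median CpG density was 1.54 per 100 bp in members and 2.04 in all loci. The share inside genes differed little, with 59.4% of members and 57.4% of all loci, whereas 14.8% and 22.4% touched a coding exon and 36% and 28.5% lay in an intron. The members were low in counts, with a median mean count of 33.2 and 26 members at 60 or more. Random counting alone would give a median CV of 0.174 at these counts, or 0.245 if both mates of each read pair had been counted, and the share of even counts among members was 52.6 to 75.8% by library.

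**Figure D1:**
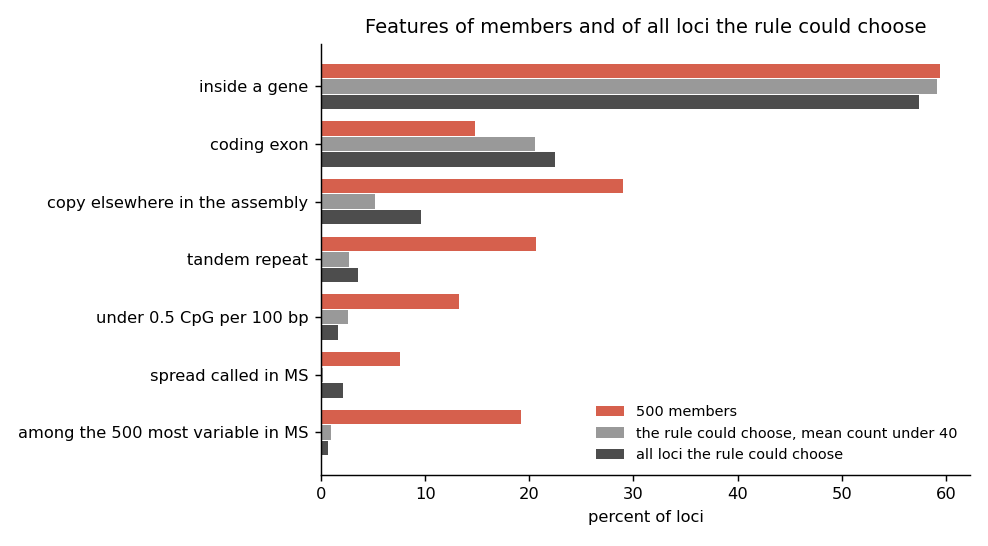
Percent of loci (x axis) with each feature (y axis) among the 500 members (red), the loci with a mean count under 40 (light grey) and all 79285 loci that the rule could choose (dark grey). Copies (29% of members), tandem repeats (20.6%) and low CpG density (13.2%) were more frequent in members, and the bottom pair of features shows the MS results given below.

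A few libraries stood apart at many members in C. Tph2+/- C replicate 7 (S45) lay farthest from the C mean at 140 of 500 members, and it was the highest C library at 134 members. The next libraries were Tph2+/+ C replicate 1 with 50 members, Tph2+/+ C replicate 8 with 34 and Tph2+/- C replicate 8 with 29. At 27 members 1 library held at least 50% of the squared deviations, at 2 members (4930521O11Rik and Cdh18) the difference between S1 to S17 and S42 to S48 held that share, at 4 genotype did, and 467 had no such single term. The Pop1 repeat ranged from 1.75 to 17.1 CPM in C with a median of 4.90, and the 17.1 was S45, with no other C library above 7.10. In MS it spanned 1.24 to 7.02 CPM around a median of 3.32. The repeat in Lrrc8b had a similar form in C, from 0.811 to 11.2 CPM around 3.21 with S45 highest, yet MS libraries spread over 0.552 to 9.40 CPM. Fry, which encodes a microtubule-binding protein, reached 11.8 CPM in S45 from a C median of 3.46, and its MS range was narrower (2.00 to 6.63 CPM). In contrast, both Gm32584 members were spread over many libraries. The one at chr5:36660662-36661676 ranged from 0.673 to 10.7 CPM in C and from 0.270 to 6.37 CPM in MS, and the one at chr5:36630205-36630903 from 0.992 to 12.3 CPM and from 0.219 to 7.68 CPM. The highest C library was S45 for the former and Tph2+/+ C replicate 8 for the latter, and Tph2+/+ MS replicate 8 was the highest MS library for both.

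**Figure D2:**
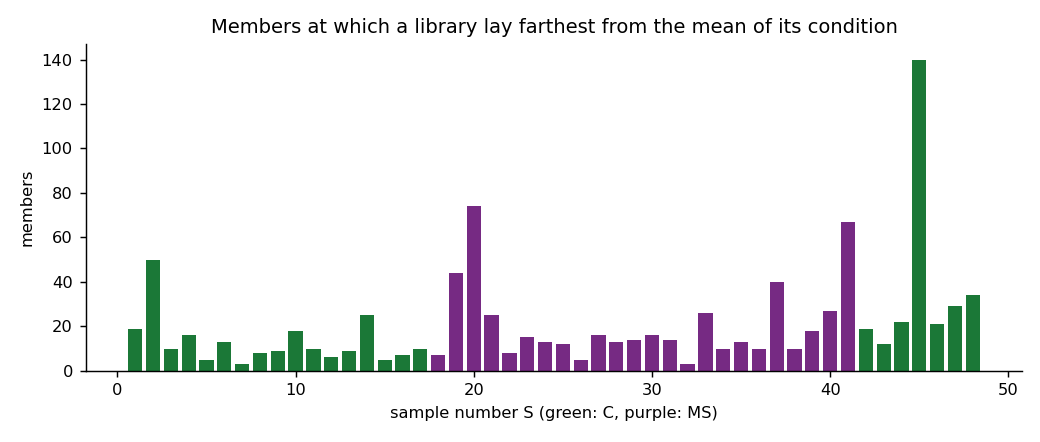
Number of members (y axis) at which each library lay farthest from the mean of its condition, by sample number S1 to S48 (x axis; green C, purple MS, with all 24 MS libraries). S45 stands at 140, and among MS libraries S20, which was left out of the tests, stands at 74 and S41 at 67.

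The spread was in part present in separated mice, which the rule had not used. The median CV of the members over the 22 MS libraries was 0.332, compared with 0.240 over all 79285 loci. Of the 500 members, 96 (19.2%) were among the 500 loci of highest CV in MS, a class that made up 0.631% of all loci. The count was 39 with all 24 MS libraries. When 500 loci were chosen again in C, it was 49 with library sizes from the trimmed mean of M-values (TMM), 48 without S42 to S48 and 78 without S45, and these sets shared 429, 193 and 350 loci with the members. The kinds of sequence differed in this count. It was 32 of 66 members under 0.5 CpG per 100 bp, 34 of the tandem repeats (33.01%), 46 of 145 members with a copy elsewhere, and 19 of 256 members that were neither copy nor tandem repeat. Of all loci the rule could choose that had a copy, 1.70% were among the 500 highest in MS. For the other kinds this share was not computed, so a trait of the kind cannot be told from one of the members. By abundance, 15 of the 26 members whose mean count was at least 60 were among the 500 highest in MS, as were 57 of the 410 under 40. For all loci the rule could choose, the shares in these 2 count ranges were 0.563% and 0.922%.

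**Figure D3:**
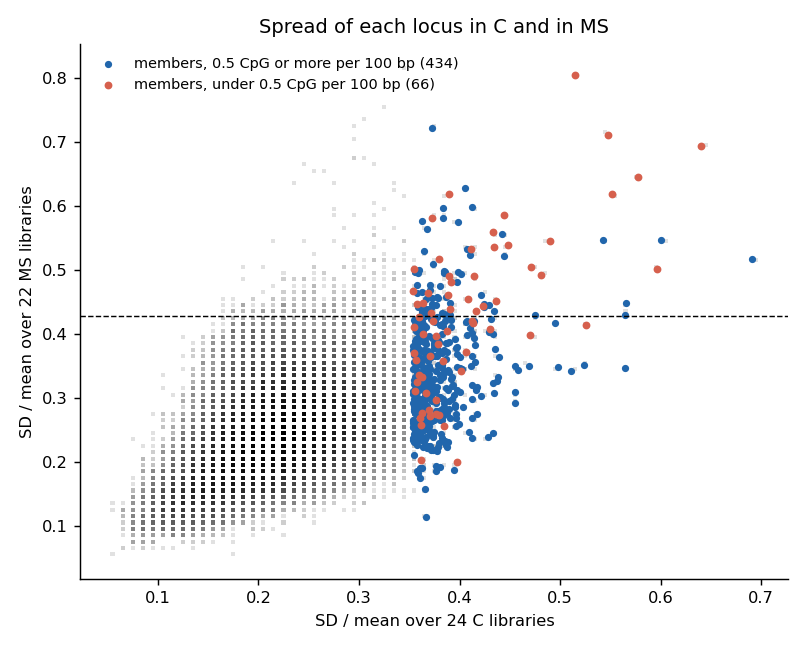
CV over the 24 C libraries (x axis) and over the 22 MS libraries (y axis) for all 79285 loci (grey, darker where loci are dense), members with 0.5 CpG or more per 100 bp (blue, 434) and members under that density (red, 66). The dashed line is the limit of the 500 highest loci in MS, and 96 members lie above it.

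A test of spread within genotype was then made in MS alone. For each locus the quasi-dispersion from edgeR was divided by the value of loci of like abundance, and the ratio was tested with an upper-tail F-test and Benjamini-Hochberg adjustment over all 187695 loci. An unadjusted p under 0.05 was found in 161 members (32.2%), compared with 6.6% of all loci and 10.9% of the 79285. The ratio passed at an adjusted p under 0.05 in 38 members (7.6%), compared with 1.04% of all loci and 2.09% of the 79285. By abundance, 13 of 26 members with a mean count of 60 or more passed, compared with 6.06% of all loci the rule could choose in that range. Under 40, 16 of 410 members passed (3.90%), compared with 0.165% of such loci. Without S18 to S26, 23 members passed (4.6%) and the share of all loci was 0.0554%. With the run S18 to S26 as a covariate, 16 members passed (3.2%) and 0.0368% of all loci. With all 24 MS libraries it was 21 members and 0.256% of all loci, and with limma 7 members and 0.0192%. The 10 members of smallest p are described next with the sequences they resemble.

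The member near Chl1, a neural cell adhesion gene 195371 bp away, had the highest ratio. It lay between 1.44 and 24.95 CPM in C (median 9.02) and between 1.58 and 21.9 CPM in MS (median 6.73). The ranges of the genotypes overlapped, with medians of 7.24, 6.08 and 6.39 CPM in Tph2+/+, Tph2+/- and Tph2-/- MS. The ratio was 10.4 (adjusted p = 0.000164, edgeR quasi-dispersion). An intron member of Vps45, a gene of vesicle trafficking, had tandem units of 68 bp and ranged from 0.809 to 16.4 CPM in MS around 7.42 (ratio 7.63, adjusted p = 0.00219). The member near the pseudogene Gm23939 spanned 1.31 to 17.2 CPM in MS around 5.67 (ratio 5.77, adjusted p = 0.0182). Its highest library in MS, Tph2+/+ MS replicate 8, was also the highest for Chl1 and Vps45.

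Gm10222 (chr1:24611160-24616620) was the member of highest count. Of 4650 aligned bases, 4648 (99.96%) were identical to positions 6394 to 11042 of the mitochondrial genome, and no other member aligned to that genome. It had 213 to 1074 CPM in C (median 625.2) and 124.6 to 761 CPM in MS (median 344). The ranges of the genotypes overlapped in C and in MS, and the narrowest in MS was that of Tph2-/-, at 221 to 542 CPM. The spread ratio in MS was 9.96 (adjusted p = 0.000185). With all 24 MS libraries the ratio was 2.51 (adjusted p = 0.34).

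Other members followed this locus. In C, 37 of the other 499 had a correlation of 0.7 or more with it (log2 CPM, 24 libraries), a group that these libraries chose. Of the 37, 28 had a copy elsewhere in the assembly, 26 were under 0.5 CpG per 100 bp and 28 lay in the 4 largest clusters described next. Over the 22 MS libraries their median r with Gm10222 was 0.70 (range -0.25 to 0.93), and 18 of 37 were again at 0.7 or more, a level reached by 0.0933% of all other loci. Of all 151 loci that reached it in C, 55 (36.4%) did so again in MS, compared with 48.6% of the 37. The points share the library and its depth, so these values are a description. For the member near Chl1, r was 0.93 over the 22 MS libraries (permutation p = 1e-05, the smallest that 100000 permutations give, adjusted p = 3.3e-05 over 20 relations) and rho was 0.94 (permutation p = 1e-05, adjusted p = 6.7e-05). It was 0.90 without the 2 libraries farthest from the median, 0.84 among the 8 libraries of S18 to S26 and 0.97 among the 14 of S27 to S41. For Gm32584 at chr5:36660662-36661676, r was 0.78 (permutation p = 2e-05, adjusted p = 5.7e-05) and rho 0.74 (permutation p = 9e-05, adjusted p = 0.00037). It was 0.68 without the farthest 2 libraries, 0.79 in S18 to S26 and 0.86 in S27 to S41. Vps45 followed less closely in MS, with r = 0.49 (permutation p = 0.02, adjusted p = 0.036) and rho = 0.43 (permutation p = 0.048, adjusted p = 0.08). Without the farthest 2 libraries r fell to 0.24, so the value over the 22 MS libraries depends on these. For Vps45, r was 0.38 in S18 to S26 and 0.64 in S27 to S41. In C, whose libraries chose the 37, r was 0.88 for Vps45, 0.86 for this Gm32584 member and 0.92 near Chl1, as a description. Whether the amount of mitochondrial DNA in a preparation had a part in these relations was not tested.

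**Figure D4:**
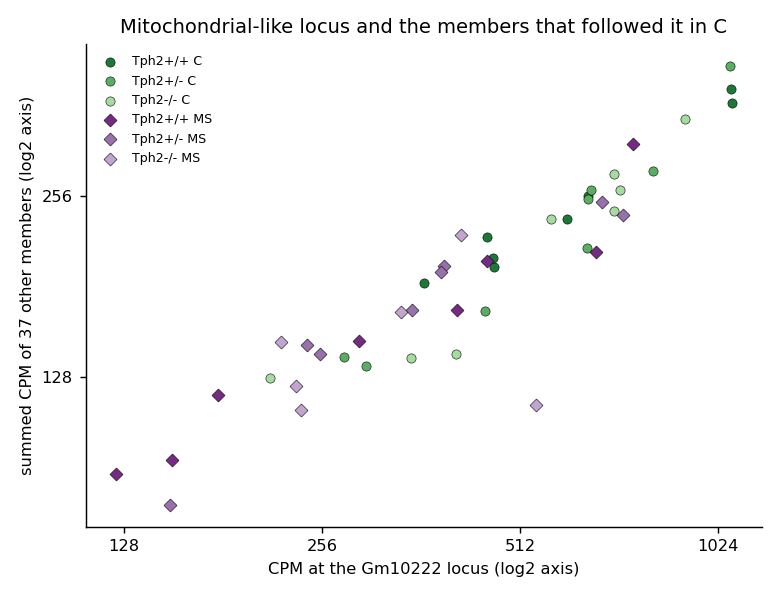
CPM at the mitochondrial-like Gm10222 member (x axis, log2) and summed CPM of the 37 members that followed it in C (y axis, log2), 1 point per library (circles C, diamonds MS, shades by genotype). The MS libraries, which did not choose the 37, span 124.6 to 761 CPM at Gm10222, and 1 Tph2-/- MS library at 542 CPM lies below the others.

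Of the members, 138 lay in 26 clusters of 3 or more with gaps of up to 1 Mb. The largest, at chr5:14835793-15698440, held 22 members among 99 loci of the rule's size, over predicted genes and the Speer family, which is expressed in the male germ line. All 22 had a copy elsewhere, and 15 were among the 500 most variable loci in MS. Summed over the 22, the level was 103.7 to 206.9 CPM in Tph2+/+ C and 51.1 to 178.8 CPM in Tph2+/+ MS, with medians of 128.9 and 84.3 CPM. Its member of highest CV, near Gm21149, had r = 0.84 with Gm10222 in MS (permutation p = 1e-05, adjusted p = 3.3e-05; rho = 0.87, permutation p = 1e-05, adjusted p = 6.7e-05; 0.85 without the farthest 2 libraries, 0.84 in S18 to S26 and 0.84 in S27 to S41). The second, at chr8:18730713-20835032, also had 22 members, of 155 loci, and 9 of them were among the most variable in MS. Its leading member, in the pseudogene Gm6483, had r = 0.48 with Gm10222 in MS (permutation p = 0.023, adjusted p = 0.038; rho = 0.50, permutation p = 0.018, adjusted p = 0.034; 0.41 without the farthest 2, 0.60 in S18 to S26 and 0.57 in S27 to S41). The third, at chr1:84993920-85629483, had 11 members of 98 loci around Sp110 and Sp140, genes of nuclear body proteins, and its leading member near Rpl19-ps1 had r = 0.75 (permutation p = 8e-05, adjusted p = 0.00016; rho = 0.66, permutation p = 0.001, adjusted p = 0.0021; 0.71 without the farthest 2, 0.89 in S18 to S26 and 0.75 in S27 to S41). The fourth, at chr4:145736605-147432811, had 11 members of 117 loci around the zinc finger genes Zfp993, Zfp978 and Zfp991. The sixth, at chr12:20250896-22031095, had 5 members, led by an intron of Asap2. Members of 1 cluster had a median pairwise r of 0.55 over MS libraries, compared with 0.12 for members on different chromosomes.

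The other 8 of the 20 relations did not pass over the 22 MS libraries. In MS, Gm10222 had no detectable relation to the member at the end of chromosome 10 or to those of Pop1, Zfp991, Gm32802 and Asap2, to the CpG slope, to the summed CPM of 1196 non-members under 0.5 CpG per 100 bp or to the chromosome 17 locus described next. Their r was between -0.06 and 0.27 (permutation p of 0.22 to 0.97, adjusted p of 0.34 to 0.97) and their rho between -0.10 and 0.30 (permutation p of 0.17 to 0.91, adjusted p of 0.27 to 0.91). Without the farthest 2 libraries r was between -0.04 and 0.23, in S18 to S26 between -0.14 and 0.65 and in S27 to S41 between -0.52 and 0.36. The 0.65 and the -0.52 both belonged to the chromosome 17 locus. Its relation to Gm10222 had opposite signs in the runs, with r = 0.14 over the 22 libraries. In C, as a description, Gm10222 had r = 0.56 with the non-members, -0.40 with the CpG slope and -0.36 with the chromosome 17 locus. For the members, r in C was 0.49 at Pop1, 0.45 at the end of chromosome 10, 0.43 at Zfp991, 0.26 at Gm32802 and 0.19 at Asap2.

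A further 5 of the 10 members of smallest p in the spread test are described with the locus over Gm26917 and Gm42418 (chr17:39842520-39849260), where the assembly holds part of a copy of the ribosomal RNA precursor gene. Over all members, 18 (3.6%) had r of 0.7 or more with this locus in MS, compared with 5.96% of all loci. Lars2, the gene for mitochondrial leucyl-tRNA synthetase, had a member over a coding exon at chr9:123461491-123462558. It ranged from 23.4 to 104.5 CPM in C (median 42.4) and from 34.6 to 167.3 CPM in MS (median 49.1), and the spread ratio was 8.24 (adjusted p = 0.00118). Tph2+/+ MS replicate 1 at 167.3 CPM and Tph2-/- MS replicate 2 at 164 CPM stood above all other MS libraries, and both are in S18 to S26. The member 10721 bp from Apbb1ip, an adaptor of integrin activation, reached 17.1 and 18.1 CPM in the same libraries from an MS median of 4.57 CPM (ratio 9.41, adjusted p = 0.000327). That near Gm6020 (ratio 7.47, adjusted p = 0.00253) and that in the long noncoding RNA gene Gm30821 on chromosome 18 (ratio 6.71, adjusted p = 0.007) were likewise highest in Tph2+/+ MS replicate 1. An intron member of Mpp7, which encodes a scaffold protein of cell junctions on chromosome 18, reached 31.7 CPM there from a median of 8.90 CPM (ratio 10.3, adjusted p = 0.000164). Without S18 to S26 the call was lost near Apbb1ip (ratio 1.66, adjusted p = 0.985), near Gm6020 (2.20, adjusted p = 0.859) and in Gm30821 (1.92, adjusted p = 0.941). In Gm30821 it was also lost with that run as a covariate (3.70, adjusted p = 0.138), and in Lars2 with all 24 MS libraries (4.13, adjusted p = 0.0616). In C, the members of Lars2, Gm30821 and Gm6020 had r of 0.7 or more with the chromosome 17 locus, that near Apbb1ip 0.66 and Mpp7 0.04, as a description.

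The chromosome 17 locus had a median of 3850 CPM in S18 to S26 and 1904 CPM in S27 to S41, with overlapping ranges. Values of r and p over all MS libraries thus take in this difference between the runs. Over the 22 MS libraries the chromosome 17 locus had r = 0.92 with Lars2 (permutation p = 1e-05, adjusted p = 3.3e-05; rho = 0.66, permutation p = 0.00095, adjusted p = 0.0021), which was 0.79 without the farthest 2 libraries, 0.97 in S18 to S26 and 0.66 in S27 to S41. For Gm30821 it was 0.96 (permutation p = 1e-05, adjusted p = 3.3e-05; rho = 0.88, permutation p = 1e-05, adjusted p = 6.7e-05), and 0.91, 0.95 and 0.91 in the same order. For the member near Gm6020 it was 0.78 (permutation p = 1e-05, adjusted p = 3.3e-05; rho = 0.74, permutation p = 0.00011, adjusted p = 0.00037), and 0.69, 0.80 and 0.52. For the member near Apbb1ip it was 0.92 (permutation p = 1e-05, adjusted p = 3.3e-05; rho = 0.76, permutation p = 0.00013, adjusted p = 0.00037), and 0.82, 0.93 and 0.66. For Mpp7 it was 0.72 (permutation p = 6e-05, adjusted p = 0.00013; rho = 0.72, permutation p = 0.0003, adjusted p = 0.00075), and 0.56, 0.51 and 0.61. These 5 members were named for their spread in the same MS libraries, and the p-values do not account for that choice. For Mpp7, whose r in C was 0.04, the values are therefore a description, and 5.96% of all loci reached 0.7 in MS. None of these 5 members aligned to the 6741 bp of the chromosome 17 locus, and the rest of the ribosomal RNA repeat was not searched. That locus also followed the CpG slope of the library (r = 0.79, permutation p = 4e-05, adjusted p = 0.0001; rho = 0.75, permutation p = 0.0001, adjusted p = 0.00037), with 0.71 without the farthest 2 libraries, 0.60 in S18 to S26 and 0.65 in S27 to S41. The part of the CpG slope in the relations of the members was not tested.

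The member at the end of chromosome 10 (chr10:130594226-130594993), 1325 bp from Ftl1-ps2, ranged from 1.44 to 9.83 CPM in C (median 3.23) and from 1.47 to 24.01 CPM in MS (median 4.39). The 24.01 was Tph2-/- MS replicate 2, and S18 to S26 (median 8.58 CPM) lay above S27 to S41 (median 3.95 CPM) with an overlap. Its spread ratio was 9.79 (adjusted p = 0.000215), and without S18 to S26 it was 2.24 (adjusted p = 0.841).

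**Figure D5:**
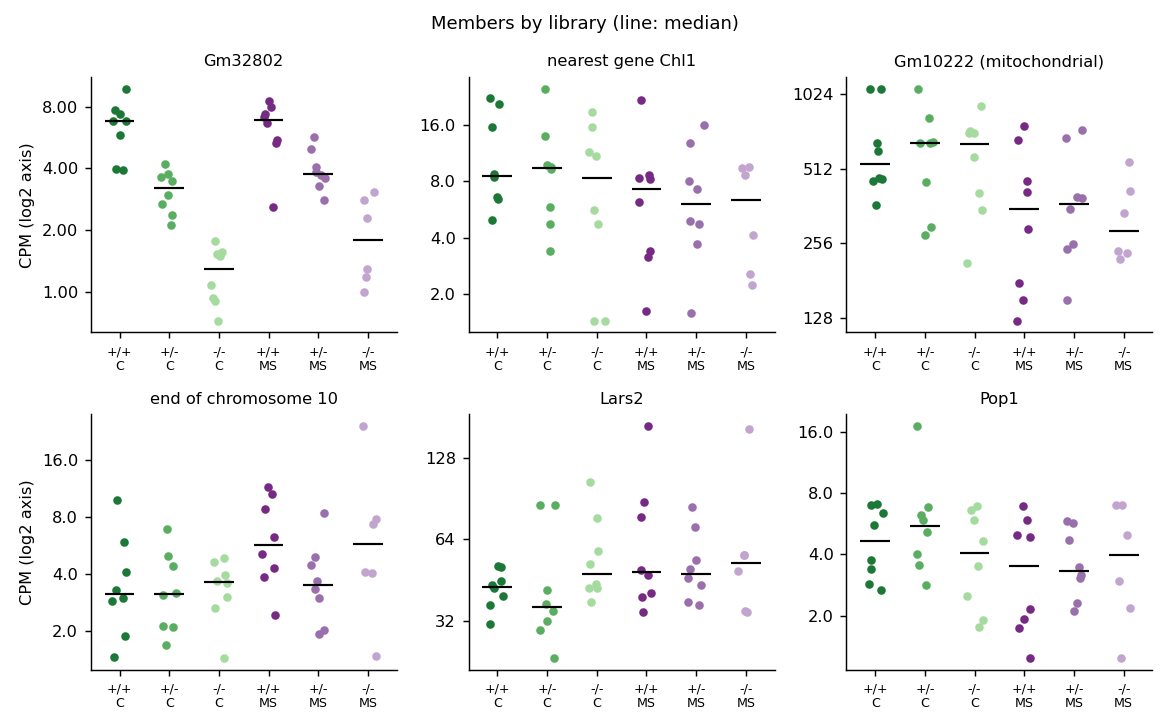
CPM (y axis, log2) of 6 members in each library by genotype and rearing (x axis), with the group median as a line. Gm32802 steps down with each lost Tph2 allele (C medians 6.83, 3.22 and 1.29 CPM), while the member near Chl1, Gm10222, the end of chromosome 10, Lars2 and Pop1 overlap between genotypes.

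Genotype separated a small group of members 3.05 to 3.07 Mb from Tph2 on chromosome 10. Gm32802 (chr10:118259603-118260692), the member of highest CV in C, had 3.93 to 9.78 CPM in Tph2+/+ C (median 6.83), 2.13 to 4.18 in Tph2+/- C (median 3.22) and 0.722 to 1.77 in Tph2-/- C (median 1.29). In MS, which the rule did not use, it had 2.60 to 8.56 CPM (median 6.91), 2.79 to 5.68 (median 3.77) and 0.998 to 3.06 (median 1.79). The Tph2+/+ and Tph2-/- MS groups overlapped through 1 Tph2+/+ library. The log2 fold change of Tph2-/- MS against Tph2+/+ MS mice was -1.71 with an SE of 0.25 (adjusted p = 0.000487, edgeR quasi-likelihood F-test). Gm32717 (chr10:118238775-118239834) had 5.26 to 7.56 CPM in Tph2+/+ MS, 3.12 to 5.98 in Tph2+/- MS and 1.13 to 3.26 in Tph2-/- MS, without overlap between the homozygous groups (log2 fold change -1.65, SE 0.21, adjusted p = 1.15e-05). Gm9029 (chr10:118244249-118245233) had 5.53 to 7.86, 3.08 to 5.68 and 1.78 to 4.72 CPM (log2 fold change -1.14, SE 0.19, adjusted p = 0.00501). These 3 pseudogenes share sequence: Gm32717 and Gm32802 were identical over 1059 bp, Gm9029 was 98.6% identical to each over 985 bp, and each had 9 copies in the assembly, so reads could be placed at any of them. The stretch of highest CpG density in Gm9029 was the same 150 bp as in Gm32717.

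These 3 were the members called in that comparison, of 8 loci called in all (0.00426%), and all 8 were lower in Tph2-/- MS. The other member in Gm9029 (chr10:118245326-118246727) was at -0.68 on the log2 scale, with an SE of 0.18 (adjusted p = 1). For Tph2+/- against Tph2+/+ in MS no member and no locus passed with edgeR (0% of loci). An unadjusted p under 0.05 was found in 20 members, compared with 3.27% of all loci and 2088 of the 79285 loci. With DESeq2 also no member passed. The smallest unadjusted p among members was that of Gm9029, at -0.71 on the log2 scale with an SE of 0.17 (adjusted p = 1). Gm32717 and Gm32802 had values of -0.69 and -0.72 in the same comparison.

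The sample runs within MS were compared next. The labels number the samples but name no runs. The cut after S26 came from earlier results of these same data. The p-values of this comparison do not account for that choice and are a description. With genotype as a covariate, 72 members differed between S18 to S26 and S27 to S41 (14.4%), which was near the share of the 79285 loci (14.7%) and above that of all loci (8.37%). Of the 72, 29 were higher and 43 lower in S18 to S26. Lower in S18 to S26 were 8.6% of members and 1.87% of all loci. The 29 higher members compare with 6.5% of all loci that were higher. Of the 79285 loci, 11664 were called, and 10400 of these were higher in S18 to S26. Pacs1, a sorting protein gene with a 49 bp repeat in an intron, had 1.10 to 4.71 CPM (median 3.70) in S18 to S26 and 3.34 to 11.3 (median 7.12) in S27 to S41, with a small overlap (log2 fold change -1.10, SE 0.17, adjusted p = 0.000155). The member near Gm41728 on chromosome 18 changed by -0.99 (SE 0.19, adjusted p = 0.000364) and that in Bbs9, a gene of the ciliary BBSome complex, by -0.86 (SE 0.16, adjusted p = 0.000476). Higher in S18 to S26 were Gm30821 at 1.19 (SE 0.30, adjusted p = 0.00087) and Prr5l, a gene of an mTOR complex protein, at 0.995 (SE 0.20, adjusted p = 0.00109). Prr5l had medians of 5.65 CPM in S18 to S26 and 3.58 in S27 to S41, and the ranges overlapped.

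MS against C was compared in all 46 libraries, which include the C libraries that had chosen the members. Over genotypes, 1 member passed at an adjusted p under 0.05, of 32 loci (0.017%, and 0.00852% in either direction). This was a locus 46068 bp from the pseudogene Gm15427 (chr1:95451566-95452503), which had 2.04 to 7.996 CPM in C (median 4.41) and 0.970 to 4.98 CPM in MS (median 2.45). Medians fell from 5.27 to 1.49 CPM in Tph2+/+ mice, from 3.89 to 2.55 in Tph2+/- and from 3.44 to 2.77 in Tph2-/-, and each pair of ranges overlapped. The log2 fold change was -0.90 (SE 0.17, adjusted p = 0.0384). With DESeq2, which gave this locus no adjusted p, 4 members passed, along with 0.653% of all loci and 1.37% of the 79285. At the limits used in the study, a log2 fold change beyond 0.2 at an unadjusted p under 0.01, 50 members passed, 46 lower and 4 higher in MS, compared with 3.63% of all loci, of which 1.34% were lower and 2.29% higher. The direction over all loci depended on the setting. With total counts in place of TMM it was 2.34% lower and 0.888% higher (members 58 and 2), and without S18 to S26 0.749% and 0.518% (members 28 and 4). Since the C values in this comparison chose the members, nothing is read from their count or direction. An unadjusted p under 0.05 was found at 20.6% of members, 12.2% of all loci and 13147 of the 79285 loci. The median log2 fold change of the members was -0.07, that of all loci 0.00. Without S45, which was high at many members in C, 43 members passed at these limits, without S18 to S26 32, and with S42 to S48 as a covariate 33. Gm10222 had a log2 fold change of -0.65 with an SE of 0.22 (adjusted p = 0.226).

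Within genotypes and for the interactions no member and no locus passed (0% of loci, edgeR), and none of the members did with DESeq2. The number of members with an unadjusted p under 0.05 was 54 in Tph2+/+ (6.5% of all loci), 42 in Tph2+/- (4.35%) and 40 in Tph2-/- (7.08%). It was 22 for GE1, the MS effect in Tph2+/- minus that in Tph2+/+ (3.7%), and 13 for GE2, the same for Tph2-/- (3.36%). Among the 79285 loci the numbers were 5802, 3170, 6982, 2594 and 2376 in the same order. The smallest unadjusted p in Tph2+/+ was at Gm15427 (log2 fold change -1.40, SE 0.29, adjusted p = 0.597). In Tph2+/- it was near the pseudogene Gm53056 (-0.78, SE 0.23, adjusted p = 1) and in Tph2-/- in Zfp978 (-0.99, SE 0.27, adjusted p = 0.624). For GE1 it was in Gm31340, where the interaction was -1.03 (SE 0.28, adjusted p = 1), and for GE2 near Gm20786 at -0.95 (SE 0.29, adjusted p = 1).

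Genes of known variable or related classes were then counted among the members. A list of genes with intracisternal A particle (IAP) insertions of known variable methylation covered 24 loci. Of these, 1 was a member (0.2% of members, compared with 0.0303% of the 79285). The list was matched by gene symbol, so these loci need not lie at the insertions. The member, in a coding exon of Marveld2, had 1.26 to 6.42 CPM in C (median 4.10) and 2.36 to 7.32 in MS (median 4.11). It had no copy elsewhere in the assembly, and its spread test in MS did not pass. Of 135 loci of imprinted genes, 1 was a member (0.2%, compared with 0.170%), 13295 bp from Gnas, at 2.17 to 7.46 CPM in C (median 4.24) and 1.94 to 8.33 in MS (median 4.17). Tandem gene families made up 17 members (3.4%, compared with 1.96% of all 79285 loci), with 6 among the most variable in MS, and included Sp110, Sp140, Speer4cos, Mup22, Pramel42, Pramel17, Nlrp4c, Vmn2r53 and olfactory receptor genes. Zinc finger genes made up 5 (1.0%, compared with 1.04%). Of these, Zfp991, Zfp993 and Zfp978 were among the most variable in MS, with CVs of 0.521, 0.575 and 0.446, and Zfp536 and Zfp827 had 0.284 and 0.248. Predicted genes made up 179 (35.8%, compared with 33.6%). None of 57 loci of serotonin genes and none of 48 of the stress hormone axis was a member, and these lists made up 0.0719% and 0.0605% of the 79285.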

How the data were processed

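Genomic DNA of 48 amygdalae was captured by MBD, sequenced in 50 bp read pairs (20 Mreads planned per sample) and, per the labels and methods, mapped to GRCm38 (mm10 annotation) with Bowtie2 2.1.0. Peaks were called with MACS, and reads in merged peaks were counted with DiffBind 2.0.9. The deposited values are raw counts per locus, which the authors tested with DESeq2. Here CPM used the total without the row of highest total count, with a pseudocount of 0.1 CPM for log2 values. The members and lists were chosen with earlier results of these data known.

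Contrasts used edgeR 4.0.16 (TMM, trended dispersion, robust quasi-likelihood F-test) in R 4.3.3, adjusted over all loci. The spread test divided each quasi-dispersion by its trend. No locus was filtered. Genes of members are those overlapped, otherwise the nearest. Copies came from minimap2 2.31 and alignments between loci from blastn 2.17.0 on RefSeq GRCm38. A tandem repeat is a window of 200 bp that matched itself shifted by up to 150 bp at 85% or more of bases. Alternatives used DESeq2 1.42.0 and limma 3.58.1. On simulated data the spread test called 45 of 100 loci widened by a log2 SD of 0.5, 100 of 100 widened by 1 and 9 of 187495 others, and the contrast of Tph2-/- with Tph2+/+ in MS called 145 of 200 loci changed by a log2 of 1 and 3 of 187495 others. Unchanged loci were drawn from their mean, the library sizes and the trended dispersion. The simulation held no sample runs and no differences in CpG slope, so it gives no error rate for the real libraries. Each library is 1 mouse by the methods, and the labels name no litter.

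Loci named are the 10 members of highest CV in C, the 10 of smallest p in the spread test, the leading member of the 6 largest clusters, up to 5 called members per contrast (otherwise the one of smallest p), members on the gene lists and those next to the limit. The sequence of the member near Ftl1-ps2 is not reported here. Same-numbered libraries of different groups had a median correlation of 0.03 (range -0.26 to 0.54), so numbers do not pair mice.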

Additional observations from a re-analysis of the deposited data

Results flagged for a closer look

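In 24 named loci the highest or lowest library of each of the 6 groups was compared with its neighbor by Dixon's gap, and 20 of 144 group values stood apart, where chance flags about 1 in 20. Since many of these loci were named for their spread in C or in MS, the number is a description. Tph2+/- C replicate 7 stood apart at Pop1 (17.1 CPM, next 6.88), Fry (11.8, next 4.63), Lrrc8b (11.2, next 4.50), Gm23939 (21.2, next 11.4) and Bbs9 (16.7, next 9.36). Tph2-/- MS replicate 2 stood apart at the end of chromosome 10 near Ftl1-ps2 (24.01 CPM, next 7.82), near Apbb1ip (18.1, next 5.99), at Lars2 (163.7, next 56.2) and at Gm30821 (31.5, next 16.2). Tph2+/+ MS replicate 1 did so at Lars2 (167.3 CPM, next 88.0), Gm30821 (34.5, next 15.7) and Prr5l (9.94, next 5.47), and Tph2+/- MS replicate 1 at Ftl1-ps2 (8.41, next 4.93) and Gm30821 (24.9, next 15.8). Tph2+/+ MS replicate 8 stood apart near Chl1 (21.9 CPM, next 8.68) and Gm23939 (17.2, next 8.45). The remaining values were Tph2+/- C replicate 1 near Gm6020 (19.7 CPM, next 10.2), Tph2+/- C replicate 8 at Gm21154 (8.79, next 4.79), Tph2-/- C replicate 2 at Gm30821 (30.98, next 15.8) and Tph2+/+ C replicate 8 near Gm23939 (15.7, next 9.10).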

How the results depend on the processing

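The number of members among the 500 most variable loci in MS was 96 and became 39 with all 24 MS libraries. With 500 loci chosen again it was 49 with TMM library sizes, 48 without S42 to S48 and 47 with a mean count minimum of 10, and the last set shared 11 loci with the members. Leaving out 1 MS library gave 82 (without Tph2+/+ MS replicate 3) to 102 (without Tph2-/- MS replicate 2). The number called by the spread test, 38, became 21 with all 24 MS libraries, 23 without S18 to S26, 16 with that run as a covariate, 7 with limma and 0 with a replicate block, which takes up residual degrees of freedom; the replicate numbers do not pair mice. The 72 members of the sample run became 41 when Tph2-/- MS replicates 2 and 3 were left out in place of 3 and 7. With that pair left out, 102 members were among the 500 most variable in MS and 40 were called by the spread test. For MS against C, 1 member called became 3 with all 48 libraries, 2 with a replicate block, 2 with S42 to S48 as a covariate and 4 with DESeq2, and the 50 at the study's limits became 32 without S18 to S26 and 33 with that covariate. The 3 members called for genotype in MS were called under each of the 7 alternatives tried for that contrast. The contrast was not computed without S18 to S26 or with that run as a covariate. Of 19 named results that were recomputed, the 9 fold changes kept their sign and their call under each alternative that gave an adjusted p. The calls of all 10 spread ratios were lost with a replicate block, and those of 7 under at least 1 other alternative. Limma lost Gm6020 (adjusted p = 0.0508), Gm30821 and Gm23939 (0.0609 each). Depth limits the precision of single values, since 410 of 500 members had a mean count under 40.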
